A study of Mus musculus with 65 samples.

Results

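Of 32004 annotated transcription start sites (TSSs) in mouse E14TG2a embryonic stem cells, 5699 (17.8%) were promoters that were listed as open in unperturbed chromatin, were not listed as open directly behind the replication fork, and had no listed RNA polymerase II carrying phosphorylated serine 5 (S5P). They were chosen from 3 deposited peak lists. The 1 kb centred on the TSS, that is 500 bp to either side, had to overlap a steady-state peak and had to miss every nascent peak and every S5P peak. Because peak lists chose these promoters, their absence from the nascent list and from the S5P list is a description and not a result. The peak lists of 30 min, 1 h and 2 h after replication, the inhibitor libraries and the spike-in libraries were not used in the choice. Below, these promoters are called late-listed promoters, after the rule.

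Accessibility of newly replicated DNA was measured by repli-ATAC-seq, in which EdU, a thymidine analogue, is built into new DNA and the transposed EdU fragments are captured on streptavidin. Cells were E14TG2a, a line of strain 129/Ola grown in serum and LIF. In every EdU group 20 uM EdU was given for 10 min. Peak lists, 1 per group with 3 samples combined by the authors, covered a chase with 10 uM thymidine of 30 min, 1 h or 2 h, the nascent state without chase, and untreated steady-state chromatin, and the S5P list came from 2 ChIP samples. In a second experiment, cells were given triptolide, DRB or the solvent DMSO for 2 h before EdU, and were taken with a 2 h chase or without chase, with 3 libraries for each of the 6 EdU groups and each of the 6 unbound groups. Unbound chromatin is the supernatant of the capture, mostly DNA that was not being replicated. In the spike-in experiment, 100 EdU-labelled Drosophila S2 cells were added and 2 libraries were made at 2 h and 2 without chase. The sources used here give neither the drug doses nor whether a drug was kept on through the chase. Nothing in the labels ties replicates to separate cultures, so the spread behind each p-value may be technical.

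The replication fork displaces nucleosomes, transcription factors and polymerase, and new nucleosomes are laid down on both daughter strands within moments. Promoters then have to be opened again by factors and remodelling enzymes that bind their sites. RNA polymerase II is phosphorylated on serine 5 of its C-terminal repeats when it starts transcription, so S5P marks promoters where polymerase has engaged. Triptolide acts on XPB, a part of TFIIH that helps to open DNA at the start site, and DRB blocks CDK9, which releases paused polymerase into elongation. Mouse promoters fall broadly into CpG islands, which are rich in unmethylated CpG and often active or poised in stem cells, and CpG-poor promoters, which are often tissue-specific.

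Sequences of 5 late-listed promoters are shown because the named results turn on them and because they include both CpG-poor and CpG-rich stretches. Each is the stretch of 250 bases before the RefSeq gene start on the strand of the gene, in build GRCm38.p6 (mm10), with every CpG in capitals. H2bc14, a replication-dependent histone H2B gene, lies at chr13:21721794-21722043 on the plus strand, Akr1e1, an aldo-keto reductase gene, at chr13:4609165-4609414 on the minus strand, and Uvrag, an autophagy gene, at chr7:99141145-99141394 on the minus strand. Pax6, a master regulator of eye and brain development, lies at chr2:105668646-105668895 on the plus strand, and Dmrt2, a transcription factor gene of somite development, at chr19:25672161-25672410 on the plus strand.
H2bc14: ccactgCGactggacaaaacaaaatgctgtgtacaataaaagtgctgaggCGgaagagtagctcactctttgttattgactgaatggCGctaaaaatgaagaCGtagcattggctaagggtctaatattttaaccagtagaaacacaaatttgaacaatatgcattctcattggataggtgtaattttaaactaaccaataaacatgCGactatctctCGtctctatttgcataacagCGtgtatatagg
Akr1e1: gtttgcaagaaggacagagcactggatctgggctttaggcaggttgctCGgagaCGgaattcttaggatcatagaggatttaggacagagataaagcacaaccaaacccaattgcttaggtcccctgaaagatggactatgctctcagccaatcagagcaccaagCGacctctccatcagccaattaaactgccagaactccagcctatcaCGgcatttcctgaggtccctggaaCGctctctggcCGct
Uvrag: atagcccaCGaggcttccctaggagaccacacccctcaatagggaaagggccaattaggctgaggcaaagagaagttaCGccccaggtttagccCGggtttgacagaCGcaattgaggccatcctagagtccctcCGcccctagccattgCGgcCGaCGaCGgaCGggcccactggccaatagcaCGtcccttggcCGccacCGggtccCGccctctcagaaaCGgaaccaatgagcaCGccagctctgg
Pax6: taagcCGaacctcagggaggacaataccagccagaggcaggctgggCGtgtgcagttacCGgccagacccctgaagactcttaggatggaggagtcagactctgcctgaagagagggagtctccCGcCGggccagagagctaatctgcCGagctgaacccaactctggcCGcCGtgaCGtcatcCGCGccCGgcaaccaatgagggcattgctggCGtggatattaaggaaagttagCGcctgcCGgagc
Dmrt2: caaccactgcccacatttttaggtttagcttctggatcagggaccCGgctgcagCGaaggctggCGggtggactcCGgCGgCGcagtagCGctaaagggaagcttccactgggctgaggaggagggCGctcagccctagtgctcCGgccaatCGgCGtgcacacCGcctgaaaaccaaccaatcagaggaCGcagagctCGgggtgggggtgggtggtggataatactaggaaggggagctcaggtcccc
CpG counts in these stretches were 7 for H2bc14, 6 for Akr1e1, 16 for Uvrag, 15 for Pax6 and 14 for Dmrt2. In the 300-base windows of the table, which run 50 bases past the gene start, all 5 held the CCAAT box, Uvrag also held the GC box GGGCGG, and Pax6 held the cAMP response element TGACGTCA. Each motif was searched on both strands. The ratio of observed to expected CpG in these windows was 0.803 for H2bc14 and 0.312 for Akr1e1. It was 0.669 for Uvrag, 0.698 for Pax6 and 0.625 for Dmrt2. H2bc14 thus had a low CpG count but the highest ratio of the 5, at a GC content of 38.7%.

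A promoter sequence could be matched to 2887 late-listed promoters, of 32851 promoters in the RefSeq table. Their median GC content was 57.0% and their median CpG count 12 in 300 bases, with a median ratio of observed to expected CpG of 0.545. That ratio was 0.745 at S5P-free promoters already listed in nascent chromatin (3686 matched), 0.857 at promoters with S5P and a steady-state peak (3522 matched) and 0.158 at promoters without any peak (4777 matched). A ratio above 0.6, a usual bound for CpG islands, was found for 44.0% of late-listed promoters, against 72.5%, 89.6% and 2.51% in those 3 classes and 35.8% of all promoters in the table. Late-listed promoters thus held both CpG-rich and CpG-poor sequences. No test was made between classes, which were drawn from peak lists.

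**Figure D1:**
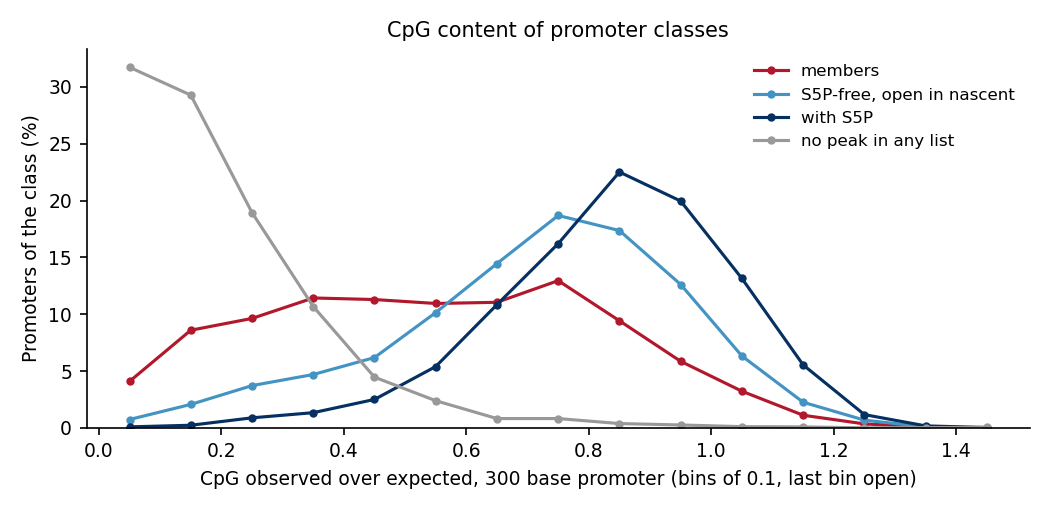
Ratio of observed to expected CpG in 300-base promoter windows (x axis) against the percent of promoters in each bin (y axis), for late-listed promoters and 3 other promoter classes. Late-listed promoters spread over low and high ratios, with a median of 0.545, while promoters with S5P had a median of 0.857 and those without a peak 0.158.

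Among 7 motifs searched by exact letters, the ETS site CCGGAAG was found in 9.53% of late-listed promoters, against 18.6% of S5P-free nascent-listed promoters, 21.7% of promoters with S5P and 8.86% of all promoters. GCGC followed 2 bases later by GCGC, the core of the NRF1 site, was found in 8.45% of late-listed promoters, against 12.9%, 17.3% and 6.23% of the same classes. The GC box GGGCGG was found in 49.9% of late-listed promoters, against 69.0%, 74.0% and 35.7%. It holds a CpG, as the ETS, NRF1, E-box and cAMP motifs do, and the part of CpG content in these shares was not tested. CCAAT was found in 35.1% of late-listed promoters, against 43.2%, 38.4% and 37.4%. The TATA box TATAAA was found in 9.59%, against 5.72%, 6.90% and 13.6%. CACGTG, the E-box, was found in 9.11% of late-listed promoters, against 9.66%, 12.1% and 7.15% of the same classes. The cAMP response element TGACGTCA was found in 2.53%, against 2.88%, 4.57% and 1.79%. A match is a description of the letters in this window and not of a bound factor.

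An annotated gene start lay within 1000 bp of 4608 late-listed TSSs (80.9%), and 3765 (66.1%) belonged to protein-coding genes. Long non-coding RNAs accounted for 393, small nucleolar RNAs for 107 and microRNAs for 92, the last being starts of precursors and not of primary transcripts. No gene was in reach of 1091 (19.1%). Coding genes made up 80.1% of S5P-free nascent-listed TSSs, 82.7% of those with S5P and 37.1% of those without a peak. Divergent pairs, 2 TSSs on opposite strands pointing apart, were 5.19% of late-listed TSSs, against 13.9%, 18.4% and 1.23% in those classes. Their steady-state peaks had a median width of 750 bp, against 1100 bp at nascent-listed and 1300 bp at S5P promoters. An enhancer of the deposited list lay within 5 kb of 7.35%, against 7.68% and 10.0%. Their median distance was 98.6 kb to the nearest S5P peak and 25.8 kb to the nearest nascent peak. Chromosome X held the largest share, with 352 of its 1446 TSSs (24.3%), and chromosome 16 the smallest among those with more than 1 late-listed TSS, with 125 of 965 (12.95%).

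The share of late-listed promoters in the peak lists grew with the length of the chase. The rule keeps them out of the nascent list and in the steady-state list, which favours a climb in between. Shares of other promoter classes in these lists are not set beside them. A peak overlapped 2336 of them at 30 min (41.0%, 95% Wilson interval 39.7 to 42.3), 3059 at 1 h (53.7%, 52.4 to 55.0) and 4015 at 2 h (70.5%, 69.3 to 71.6). These intervals cover counting error over promoters, and each list was 1 call on combined samples, so the steps had no replicate check. Sorted by the first list that held them, 2336 entered at 30 min, 1100 at 1 h (19.3%) and 934 at 2 h (16.4%), while 1329 were in the steady-state list alone (23.3%). All 3 chase lists held 1887 (33.1%), and 355 (6.23%) were in the 30 min or 1 h list but not in that of 2 h. Median width of the steady-state peak was 900 bp for those first listed at 30 min, 775 bp at 1 h, 725 bp at 2 h and 475 bp for the steady-state list alone. An ETS site was found in 168 of 1292 matched promoters first listed at 30 min, 34 of 589 (5.77%) at 1 h, 41 of 440 (9.32%) at 2 h and 32 of 566 (5.65%) in the steady-state list alone, so the shares did not follow the order of the lists. The median CpG ratio was 0.618 at 30 min, 0.538 at 1 h, 0.560 at 2 h and 0.347 in the steady-state list alone.

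Promoters on either side of the 500 bp bound had similar levels. With the nearest nascent peak 500 to 600 bp away, 116 late-listed promoters had medians of 2.32 RPM (reads of a 1 kb window scaled to the library total) in 2 h DMSO EdU and 1.49 RPM in nascent DMSO EdU libraries. Of those with a nascent peak 400 to 500 bp away, 142 that missed the class had 2.36 and 1.56 RPM in the same groups. For the S5P bound, 44 late-listed promoters had 2.60 and 1.43 RPM, against 2.77 and 1.498 RPM for 42 promoters just outside the rule. At the steady-state bound, 195 late-listed promoters had 0.741 and 0.745 RPM, against 0.601 and 0.649 RPM for 199 promoters just outside.

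Levels by library came from the inhibitor experiment, as RPM in the 1 kb window nearest the TSS. Library totals were 1.30 to 5.55 M reads in the 18 EdU libraries and 2.35 to 14.4 M in the 18 unbound libraries, so 1 read stood for 0.180 to 0.770 RPM in EdU libraries and 3 reads, the limit that a count of 0 allows, for 0.540 to 2.31 RPM. Of the late-listed promoters, 1.95%, 3.11% and 1.72% had no read in the 2 h DMSO EdU libraries and 14.9%, 11.6% and 2.69% none in the nascent DMSO EdU libraries. Their precision was limited by this depth, and reads carry no molecular identifiers, so such limits cover counting error only. Of 6 stem cell marker genes none was late-listed: Sox2, Nanog, Zfp42 and Klf4 carried S5P, Pou5f1 was nascent-listed and Esrrb had no peak. Markers of other lineages were among them, namely Pax6 and Sox1 of 5 neural, Col1a2 and Twist2 of 5 fibroblast, Sox7 of 5 primitive endoderm and Elf5 of 3 trophectoderm markers. Summed over each list, stem cell markers had 52.5 RPM in 2 h DMSO and 19.6 RPM in nascent DMSO EdU libraries, neural markers 28.9 and 9.76 RPM, fibroblast markers 21.4 and 6.39 RPM, trophectoderm markers 8.08 and 4.16 RPM and primitive endoderm markers 6.95 and 4.36 RPM. An open promoter does not show expression, and the part of other cell types in these levels was not tested. Fewer cells with an open promoter and a less open promoter in each cell cannot be told apart in such samples.

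Late-listed promoters regained accessibility within 2 h on DNA that had just been copied. Their mean level was 3.02, 2.95 and 2.75 RPM in the 2 h DMSO EdU libraries, against 1.33, 1.36 and 1.39 RPM in the nascent DMSO EdU libraries. Every 2 h library was above every nascent library. Group means were 2.91 ± 0.140 RPM at 2 h and 1.36 ± 0.028 RPM in nascent chromatin (SD, n = 3 each), a 2.14-fold difference. Relative to windows away from any peak, the mean was 15.0 ± 1.75 times background at 2 h and 4.39 ± 0.089 times background in nascent chromatin, a 3.42-fold difference. Nascent-listed S5P-free promoters had 7.15 RPM at 2 h and 2.76 RPM in nascent chromatin, a 2.59-fold difference, and promoters with S5P 7.86 and 3.11 RPM, a 2.53-fold difference. Promoters without a peak had 0.260 RPM at 2 h and 0.391 RPM in nascent chromatin. Within a library, the late-listed mean was 0.407 ± 0.009 times the nascent-listed mean at 2 h and 0.493 ± 0.004 times in nascent chromatin (SD, n = 3 each), and the 3 ratios of each group did not overlap.

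**Figure D2:**
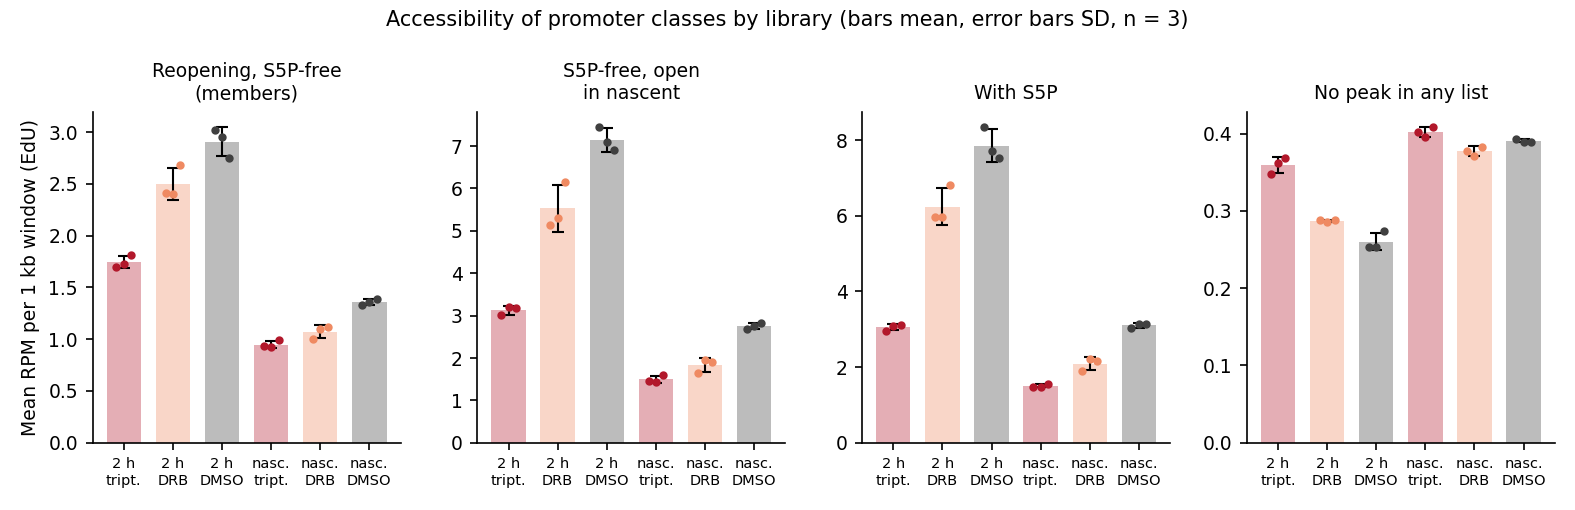
Mean RPM per 1 kb promoter window (y axis) for 4 promoter classes in the 6 EdU groups of the inhibitor experiment, with bars for the mean of 3 libraries, error bars for the SD and points for libraries. Late-listed promoters averaged 2.91 RPM in 2 h DMSO and 1.36 RPM in nascent DMSO libraries, and 1.75 RPM in 2 h triptolide libraries.

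Promoter by promoter, limma compared 2 h with nascent DMSO EdU libraries on the log2(RPM + 1) scale, with Benjamini-Hochberg adjustment over all TSSs tested and a threshold of 0.05. Of 5698 late-listed promoters tested, 1904 rose (33.4%) and 23 fell, where 31.2% of all TSSs tested rose and 1.64% fell. The share that rose was thus near that of all TSSs, while it was 62.9% of nascent-listed S5P-free promoters, 63.7% of promoters with S5P and 0.624% of promoters without a peak. Their median difference was 0.63 (quartiles 0.21 and 1.04), against 0.34 over all TSSs, and 85.4% were above 0. A median standard error of 0.37 per promoter limited what could be called. Scaling moved these counts: centring each library on its median TSS gave 764 higher and 157 lower with a median of 0.21, and took the median of all TSSs to -0.08, while scaling to windows away from peaks gave 3577 higher and 8 lower with a median of 1.06 and an all-TSS median of 0.72. Differences below are on the deposited scale unless stated.

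Accessibility was regained at the start site itself. In 2 h DMSO EdU libraries the mean over late-listed promoters was 0.661 RPM 5 kb upstream of the TSS, 1.09 RPM at 1 kb upstream, 2.91 RPM at the TSS, 1.50 RPM at 1 kb downstream and 0.656 RPM at 5 kb downstream. At the same positions the nascent DMSO EdU libraries had 0.631, 0.757, 1.36, 0.954 and 0.658 RPM. The groups thus differed around the TSS and were close together 5 kb away. At 1 kb the downstream flank was higher than the upstream flank in both groups.

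**Figure D3:**
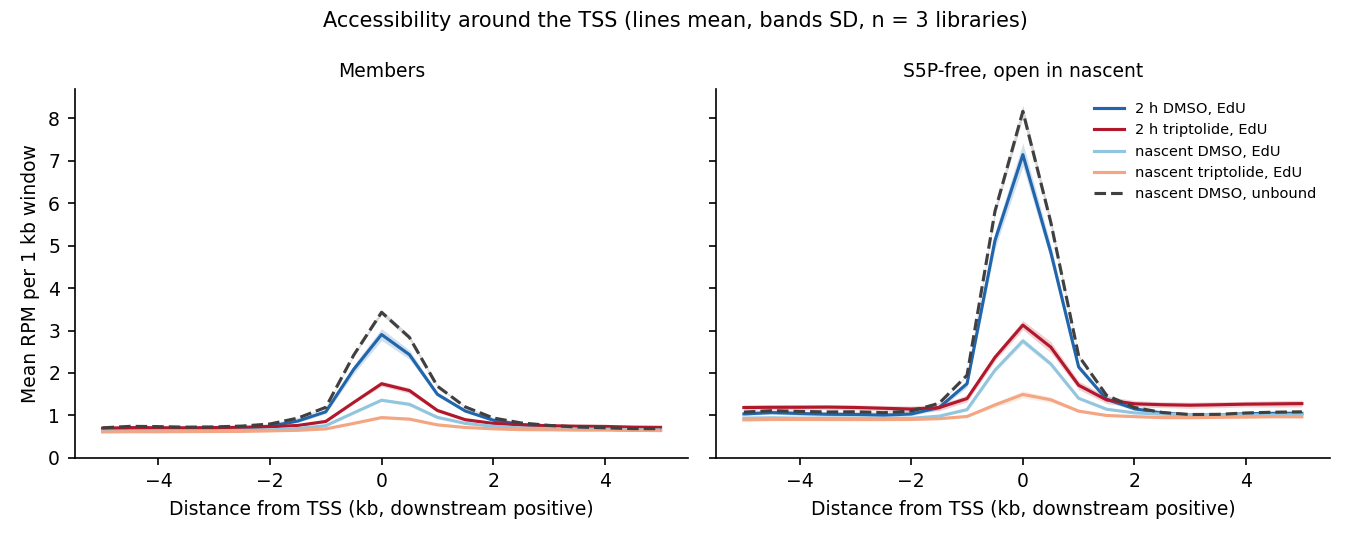
Mean RPM in 1 kb windows (y axis) by distance from the TSS in kb (x axis, negative upstream) for late-listed and nascent-listed S5P-free promoters. Lines show 2 h and nascent EdU libraries with DMSO or triptolide, and nascent DMSO unbound libraries, with bands for the SD. At late-listed promoters the 2 h DMSO EdU line reached 2.91 RPM and the nascent DMSO EdU line 1.36 RPM at the TSS. Both of these lines were between 0.631 and 0.661 RPM at 5 kb.

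Levels followed the order of the peak lists in libraries that the lists did not use. Promoters first listed at 30 min had means of 4.29 RPM in 2 h DMSO EdU and 1.72 RPM in nascent DMSO EdU libraries, a 2.50-fold difference. Those first listed at 1 h had 2.77 and 1.30 RPM (2.13-fold), those first listed at 2 h 2.07 and 1.10 RPM (1.88-fold), and those in the steady-state list alone 1.18 and 0.952 RPM (1.24-fold). In the same order 1242 of 2336 rose (53.2%), 394 of 1100 (35.8%), 197 of 934 (21.1%) and 71 of 1328 (5.35%), with medians of 0.92, 0.69, 0.58 and 0.16. Of all TSSs tested 31.2% rose, near the share first listed at 1 h and above those of 2 h and steady state only. With libraries centred on the median TSS, the median of the steady-state-only promoters turned to -0.25 with 3 higher and 105 lower, and those of the others stayed above 0 at 0.50, 0.28 and 0.16. The same order ran through unbound nascent DMSO chromatin, where means were 5.00, 3.29, 2.45 and 1.49 RPM, so a low level in bulk chromatin went with a late entry into the lists. The part of that level in the order was not tested.

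**Figure D4:**
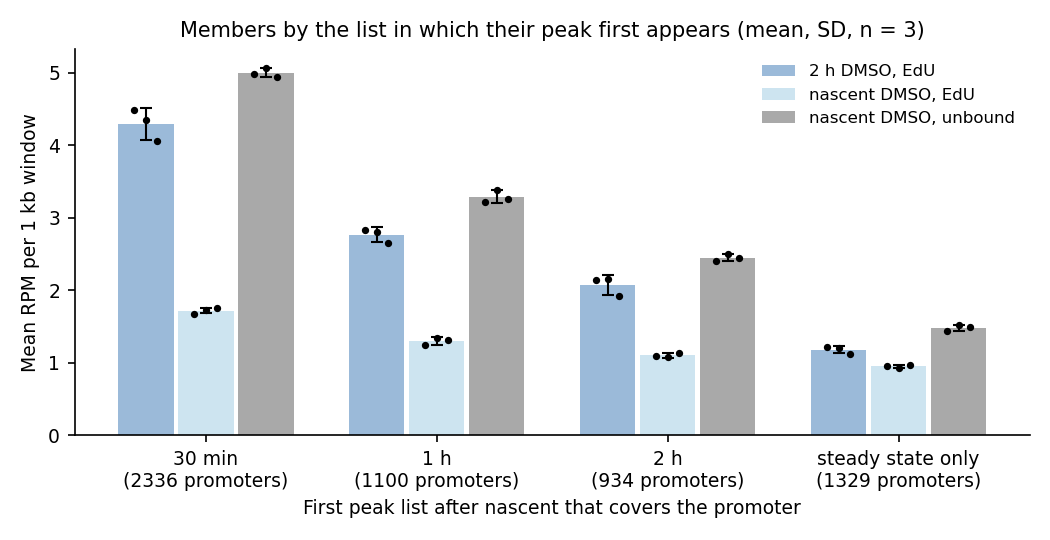
Mean RPM (y axis) of late-listed promoters by the first peak list that held them (30 min, 1 h, 2 h, steady state only), with points for libraries in 2 h DMSO EdU, nascent DMSO EdU and nascent DMSO unbound chromatin. Levels in all 3 kinds of library were highest for promoters first listed at 30 min and lowest for those in the steady-state list alone.

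The protein-coding promoters with the largest rises over 2 h served varied functions. They were named among promoters whose 2 groups of libraries did not overlap, so separate groups are part of their choice. H2bc14 (TSS at position 21722098 of chromosome 13) had 14.1, 12.2 and 11.1 RPM in 2 h DMSO EdU libraries, against 1.15, 0.505 and 0.794 RPM in nascent DMSO EdU libraries, a log2 difference of 2.90 ± 0.36 (SE, limma adjusted p = 3.2e-11). Defb1, the gene of an antimicrobial beta-defensin, had 8.58, 9.35 and 4.43 RPM, against 0, 0.505 and 0.265 RPM (2.71 ± 0.38, adjusted p = 3.1e-09). Akr1e1 had 15.0, 16.2 and 18.5 RPM, against 1.15, 4.04 and 1.06 RPM (2.64 ± 0.31, adjusted p = 3.3e-12). The 2 h libraries of these 3 genes were all at 4.43 RPM or more and the nascent ones at 4.04 RPM or less. Fam161a, which encodes a protein of the photoreceptor cilium, had 13.2, 15.1 and 14.1 RPM, against 3.46, 1.01 and 1.32 RPM, and a difference of 2.46 ± 0.33. Uvrag had 19.0, 16.2 and 13.8 RPM, against 2.31, 1.01 and 3.70 RPM, and a difference of 2.45 ± 0.32. Magel2, an imprinted gene of the Prader-Willi region, had 6.74, 6.47 and 6.91 RPM, against 0, 0.505 and 1.06 RPM, and a difference of 2.40 ± 0.34. Magel2 and Defb1 had no read in 1 nascent library. Ncam2, a neural cell adhesion molecule, had 8.89, 8.27 and 8.02 RPM, against 0, 1.01 and 1.85 RPM, and a difference of 2.39 ± 0.32. Ccdc150, Rsbn1 and Adarb2, the last a brain relative of the RNA-editing deaminases, had differences of 2.41, 2.37 and 2.34. Fam185a had the highest 2 h level among coding promoters, with 21.2, 19.1 and 13.6 RPM in 2 h DMSO EdU libraries, against 4.61, 2.52 and 4.23 RPM in nascent DMSO EdU libraries.

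The fallers were few and low. Fitm1, which encodes a protein of lipid droplet formation, had 0, 0.360 and 1.11 RPM in 2 h DMSO EdU libraries, against 4.61, 1.51 and 1.85 RPM in nascent DMSO EdU libraries, a difference of -1.27 ± 0.37 (limma adjusted p = 0.0044). Its nascent libraries were all above its 2 h libraries, which is part of its choice. The limma adjusted p was 0.068 without replicate 1 of the nascent and 0.064 without replicate 1 of the 2 h libraries. Rnf123, a ubiquitin ligase gene, had a difference of -1.20 (adjusted p = 0.0096), with an adjusted p of 0.051 without replicate 2 of the nascent and 0.094 without replicate 2 of the 2 h libraries. Mroh4 had a difference of -1.14 (adjusted p = 0.0072). All 3 were in the steady-state list alone, and in unbound nascent DMSO chromatin Mroh4 had 0.299, 0.425 and 0.164 RPM.

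Developmental regulators, transcription factor genes that pattern the embryo and are mostly silent in stem cells, gave 68 late-listed promoters of 259 TSSs, and 133 of the 259 carried S5P. Of the 68, 24 rose over 2 h and none fell, near the 33.4% of all late-listed promoters and 31.2% of all TSSs that rose, with a median of 0.59. Centred on the median TSS, 11 rose and 2 fell, with a median of 0.17. By peak list, 32 were in the 30 min, 32 in the 1 h and 50 in the 2 h peak list. Among the 8 regulators named for the highest 2 h means, Sox1, which drives neural fate, had 7.97, 7.55 and 5.25 RPM in 2 h DMSO EdU libraries, against 0.577, 2.02 and 2.12 RPM in nascent DMSO EdU libraries (1.67 ± 0.34, limma adjusted p = 3.6e-05). Neurod1, a neuronal differentiation factor, had 7.36, 4.32 and 6.08 RPM, against 1.15, 0.505 and 0.794 RPM (1.92 ± 0.32, adjusted p = 3.3e-07). Pax6 had 5.82, 5.40 and 6.36 RPM, against 1.15, 2.02 and 2.12 RPM (1.33 ± 0.32, adjusted p = 0.00047). The 2 h libraries were above the nascent libraries in all 3 genes, and the choice by 2 h means favours such a gap. Pou4f3, a hair cell factor, Pax1, a factor of the vertebral column, Dmrt2, Lhx9, a gonad and brain factor, and Alx1, a craniofacial factor, had differences of 1.66, 1.54, 1.32, 1.23 and 1.17. Alx1 lost its call without replicate 1 of the 2 h libraries (0.90, adjusted p = 0.061). CCAAT was found in 23 of the 29 regulators with a matched sequence (79.3%), against 35.1% of all late-listed promoters. That motif was picked out after the values were seen and was not tested.

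Genes of cell surfaces and of contact between cells formed the next groups. Of 71 late-listed ion channel promoters (of 161 TSSs) 29 rose, of 38 extracellular matrix promoters (of 72) 15, of 36 cell adhesion promoters (of 99) 15, of 40 G protein-coupled receptor promoters (of 122) 15, of 22 signalling promoters (of 96) 8 and of 98 transporter promoters (of 355) 28. Of all late-listed promoters 33.4% rose and of all TSSs 31.2%, and the shares of these groups were not tested against either. After centring on the median TSS the risers were 10, 6, 3, 6, 6 and 11 in the same order, and 1 matrix, 2 receptor and 3 transporter promoters fell. The medians of these groups stayed above 0, at 0.59 to 0.75 as deposited and 0.17 to 0.34 with libraries centred on the median TSS. Grik4, a kainate glutamate receptor subunit, had 8.89, 8.63 and 8.02 RPM in 2 h DMSO EdU libraries, against 1.15, 2.52 and 1.32 RPM in nascent DMSO EdU libraries (1.87 ± 0.34, limma adjusted p = 4.5e-06). Gabrg1, a GABA-A receptor subunit, had 6.44, 10.4 and 8.30 RPM, against 1.15, 1.51 and 0.794 RPM (2.12 ± 0.32, adjusted p = 3.3e-08). Col11a1, a fibrillar collagen of cartilage, had 7.97, 7.19 and 7.47 RPM, against 0.577, 1.51 and 1.85 RPM (1.93 ± 0.32, adjusted p = 3e-07). No library of one group reached the range of the other. In each of these and the following lists, the 2 promoters with the highest 2 h means were named, and that choice favours a rise. Itga1, a collagen-binding integrin, rose by 1.83, Adgra1, an adhesion G protein-coupled receptor, by 2.18, Htr5a, a serotonin receptor, by 1.65, and Epha5 and Ephb1, receptors for ephrins, by 1.55 and 1.34. Slc35f1 and Slco4c1, the second an organic anion transporter, rose by 1.79 and 1.62. Pcdh17, a protocadherin, rose by 1.15, and Col23a1, a transmembrane collagen, by 1.23.

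Numbered zinc finger genes, many of them KRAB repressors of transposable elements, gave 85 late-listed promoters of 299 TSSs. Of these, 50 rose and 1 fell, where 33.4% of all late-listed promoters and 31.2% of all TSSs rose. The median was 1.06, against 0.63 for all late-listed promoters and 1.02 for nascent-listed S5P-free promoters, of which 62.9% rose. By first peak list, 53 of the 85 entered at 30 min, a set of which 53.2% rose. The part of this in the count was not tested. With libraries centred on the median TSS 24 rose and 1 fell with a median of 0.64. Zfp40 had 13.2, 13.3 and 11.6 RPM in 2 h DMSO EdU libraries, against 2.31, 3.03 and 3.44 RPM in nascent DMSO EdU libraries (1.81 ± 0.32, limma adjusted p = 1.6e-06), and Zfp386 a difference of 2.13. The 8 late-listed histone promoters, of 72 TSSs of which 57 carried S5P, gave 5 that rose, where 31.2% of all TSSs rose, and a median of 1.29. Among them H2ac10 rose by 1.62. Histone genes have near-identical copies, and which copy a read came from is uncertain.

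The remaining groups were small or had lower medians. Of all late-listed promoters 33.4% rose and of all TSSs 31.2%, and these groups were not tested against either. Of 22 late-listed olfactory and vomeronasal receptor promoters, of 1341 TSSs, 2 rose (median 0.19), of 15 keratin promoters 1 rose (0.25) and of 5 germline promoters none (0.29), and with libraries centred on the median TSS these medians turned to -0.23, -0.17 and -0.12. Olfr95 and Olfr543 had differences of 0.83 and 0.39 (adjusted p = 0.067 and 0.42), Krt42 -0.14 and the germline genes Dazl and Sycp1 0.29 and -0.09. Krt222 rose by 1.28. Of 80 late-listed microRNA starts 11 rose, with a median of 0.21 that turned to -0.21 with centring. Mir302b, of the stem cell cluster that also holds Mir302a, rose by 2.198 and Mir135b by 1.35. Ribosomal protein promoters gave 10 of 169 TSSs, of which 3 rose, Rpl39l by 1.32 and Rps2 by 1.26, with a median of 0.56 that was 0.15 with centring. Only 4 of 35 pluripotency TSSs were late-listed: Dppa2 rose by 1.59, and Dppa3 had a difference of 0.70 (adjusted p = 0.15), while Dnmt3l and Tcl1 did not pass the test.

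**Figure D5:**
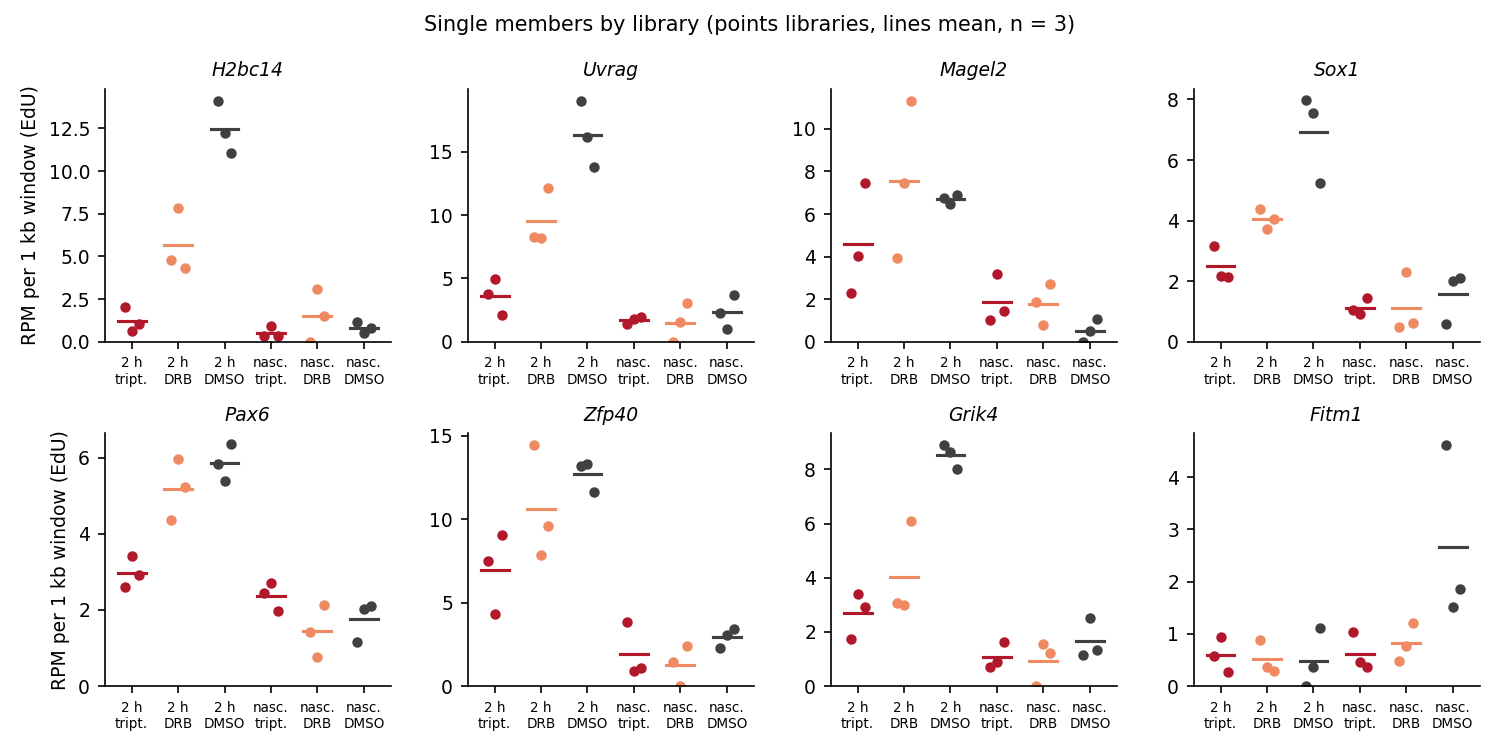
RPM in each EdU library (points) with the group mean (bars) for 8 late-listed promoters in the 6 EdU groups, with 2 h groups left of nascent groups and DMSO last in each. H2bc14 and Uvrag were low in 2 h triptolide libraries, at 0.621 to 2.02 and 2.13 to 4.97 RPM, whereas Magel2 spread from 2.30 to 7.45 RPM there.

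New DNA was compared with bulk chromatin through the unbound fraction of the capture. The limma fits took EdU and unbound libraries as independent, although both fractions come from the capture. Late-listed promoters averaged 1.36 ± 0.028 RPM in nascent EdU and 3.43 ± 0.057 RPM in nascent unbound DMSO libraries (SD, n = 3 each), so new DNA stood at 39.6% of bulk. With the 2 h chase they averaged 2.91 ± 0.140 RPM in EdU and 3.30 ± 0.148 RPM in unbound libraries, at 88.1% of bulk. The share was 33.7% without chase and 93.6% at 2 h for nascent-listed S5P-free promoters, and 35.4% and 98.0% for promoters with S5P. By limma, 3313 of 5699 late-listed promoters were lower in nascent EdU than in unbound DMSO libraries and 27 higher (median -0.82), where 43.2% of all TSSs were lower and 4.37% higher. With libraries centred on the median TSS 1819 were lower and 253 higher. At 2 h none was called, where 0% of all TSSs were, although 525 late-listed promoters had an unadjusted p under 0.05, and the median was -0.15. No late-listed promoter was called between 2 h and nascent samples in unbound DMSO chromatin (304 at an unadjusted p under 0.05), where 0% of all TSSs were called.

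Among late-listed promoters, those first listed at 30 min stood at 34.4% of bulk in nascent DMSO chromatin, those at 1 h at 39.5%, those at 2 h at 44.9% and the steady-state-only ones at 64.1%. With the 2 h chase the shares were 89.4%, 87.3%, 88.6% and 81.1%. Promoters first listed at 30 min thus had the lowest share without chase, and the shares with chase lay closer together. Low promoters lie closer to the background of both fractions, which was 0.184 to 0.351 RPM in EdU libraries, and its part in these shares was not tested. Of the numbered zinc finger genes, 66 of 85 were lower in nascent EdU than in unbound libraries, with a median of -1.24. Of all late-listed promoters 58.1% were lower, and of all TSSs 43.2%. Uvrag had 2.31, 1.01 and 3.70 RPM in nascent EdU, against 23.8, 24.2 and 20.6 RPM in nascent unbound DMSO libraries. Map3k14, a kinase of NF-kappaB signalling, had 0, 2.52 and 2.12 RPM, against 14.5, 16.6 and 15.6 RPM. Both were named for the lowest levels in nascent EdU relative to unbound libraries, so their gap from bulk is part of their choice.

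Late-listed promoters were lower on new DNA with triptolide, most clearly at 2 h. Means were 1.70, 1.73 and 1.81 RPM in 2 h triptolide EdU libraries, against 3.02, 2.95 and 2.75 RPM in 2 h DMSO EdU libraries, with no overlap. Group means were 1.75 ± 0.059 and 2.91 ± 0.140 RPM (SD, n = 3 each), a ratio of 0.601, against 0.438 for nascent-listed S5P-free promoters and 0.389 for promoters with S5P. Without chase, means were 0.936, 0.922 and 0.988 RPM with triptolide, against 1.33, 1.36 and 1.39 RPM with DMSO, a ratio of 0.699, against 0.542 and 0.485 in those classes. With triptolide the late-listed mean was 0.558 ± 0.018 times the nascent-listed mean at 2 h, against 0.407 ± 0.009 times with DMSO (SD, n = 3 each), and the 3 ratios of each group did not overlap. Even with triptolide, late-listed promoters were 1.84-fold higher at 2 h than without chase, and in DMSO libraries 2.14-fold. In unbound chromatin, the mean was 3.03 ± 0.191 RPM in 2 h triptolide and 3.30 ± 0.148 RPM in 2 h DMSO libraries.

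By limma, 1348 of 5698 late-listed promoters fell with triptolide at 2 h (23.7%) and 100 rose, where 28.6% of all TSSs fell and 2.72% rose. The median difference was -0.48, against -0.29 over all TSSs, and 56.7% of nascent-listed S5P-free promoters and 65.8% of promoters with S5P fell. The share that fell was thus below that of all TSSs, in a class whose levels are low. With libraries centred on the median TSS 456 fell and 307 rose, and with scaling to windows away from peaks 2454 fell and 91 rose. Without chase 232 fell (4.07%) and 13 rose, where 11.6% of all TSSs fell and 0.45% rose, with a median of -0.25 against -0.23 over all TSSs. Centred, 34 fell and 33 rose. That count of 245 called, where 12% of all TSSs were, was 163 without replicate 2 of the nascent DMSO libraries, and 140 and 109 without replicates 1 and 2 of the nascent triptolide libraries. Both time points shared 146 fallers, 62.9% of those without chase and 10.8% of those at 2 h. The same overlap over all TSSs was not counted, and both comparisons come from 1 fit.

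Promoters first listed early lost more under triptolide at 2 h. The mean in 2 h triptolide libraries was 0.538 times that in 2 h DMSO libraries for those first listed at 30 min, 0.615 times at 1 h, 0.627 times at 2 h and 0.940 times for the steady-state list alone. In that order 892 (38.2%), 242 (22.0%), 159 (17.02%) and 55 (4.14%) fell, and 51 of the last rose. Of all TSSs 28.6% fell and 2.72% rose, so only promoters first listed at 30 min fell more often. In 2 h unbound chromatin the order was the same, with ratios of 0.874, 0.944, 0.975 and 1.05. There 12.1%, 6.09%, 3.21% and 1.81% fell, where 12.2% of all TSSs fell, so no group was above that share. Whether the order differed between new DNA and unbound chromatin was not tested. With centring the medians were -0.34, -0.17, -0.10 and 0.23, so the steady-state-only promoters turned upward. Of 296 divergent late-listed promoters 106 fell (35.8%), against 23.0% of 5402 that were not divergent. Among promoters with a CpG ratio above 0.6, 427 of 1271 fell (33.6%, median -0.69), against 347 of 1615 (21.5%, median -0.43) of those at or below it. Their median levels in 2 h DMSO EdU libraries were 3.28 and 2.25 RPM, and the part of that level in the calls was not tested. By motif, 40.7% of the 275 with an ETS site fell, 38.1% with the NRF1 core, 33.1% with CCAAT, 29.1% with the GC box, 27.8% with the E-box, 25.6% with the TATA box and 24.7% with the cAMP response element. Of all late-listed promoters 23.7% fell and of all TSSs 28.6%, and the motifs from the GC box on were near these shares. The motif sets overlap in their promoters, and their shares were not tested.

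H2bc14 had the largest fall with triptolide at 2 h, with 2.02, 0.621 and 1.06 RPM in 2 h triptolide EdU libraries, against 14.1, 12.2 and 11.1 RPM in 2 h DMSO EdU libraries (-2.63 ± 0.36, limma adjusted p = 8.5e-10). Dnlz, a zinc finger partner of mitochondrial Hsp70, had 0.288, 0.310 and 0.798 RPM, against 6.13, 6.11 and 5.53 RPM (-2.26 ± 0.36, adjusted p = 1.4e-07). Txnl4b, a thioredoxin-like gene of the splicing machinery, had 1.44, 1.55 and 1.33 RPM, against 11.6, 10.8 and 8.02 RPM (-2.18 ± 0.35, adjusted p = 1.4e-07). Triptolide libraries of these 3 genes were at 2.02 RPM or less and DMSO libraries at 5.53 RPM or more. Genes named for this comparison had groups without overlap, so such a gap is part of their choice. Defb1 and Ajm1, a gene of apical cell junctions, fell by 2.196 and 2.18, and Uvrag, Fam161a and Rsbn1 by 1.95, 1.89 and 1.74. H2bc14, Defb1, Uvrag, Fam161a and Rsbn1 were named for large rises over 2 h in the same DMSO libraries, which favours a fall here. Fam185a and Ccdc146 share a divergent promoter and largely the same reads, and fell by 1.65 and 1.67. Their high 2 h DMSO levels were a reason for their choice.

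Other promoters that rose over 2 h did not pass the test under triptolide. Magel2 had 2.30, 4.03 and 7.45 RPM in 2 h triptolide EdU libraries, against 6.74, 6.47 and 6.91 RPM in 2 h DMSO EdU libraries (-0.57 ± 0.34, limma adjusted p = 0.22). Ncam2 had 5.76, 4.66 and 9.84 RPM, against 8.89, 8.27 and 8.02 RPM (-0.33 ± 0.32, adjusted p = 0.49). The triptolide libraries of both genes spread around the DMSO values, and 1 library was above them. Col11a1, Epha5 and Itga1 had differences of -0.20, -0.12 and -0.33, and Neurod1 of -0.28. Sox1 fell by 1.18, with 3.17, 2.17 and 2.13 RPM against 7.97, 7.55 and 5.25 RPM, and Pax6 by 0.79 (limma adjusted p = 0.049). Both were named for high 2 h DMSO means, which favours a fall. Of the 68 developmental regulators 12 fell and 2 rose, of 71 ion channel promoters 12 fell and 1 rose, of 38 matrix promoters 7 fell, and of 36 adhesion promoters 4 fell and 2 rose. Of the 98 transporter promoters 16 fell, of 40 G protein-coupled receptor promoters 9 and of 22 signalling promoters 6. Of all late-listed promoters 23.7% fell and of all TSSs 28.6%, so these counts are near or below the background. With centring the splits were 4 lower and 3 higher for developmental regulators, 6 and 5 for ion channels, 2 and 3 for matrix, 0 and 2 for adhesion, 4 and 7 for transporter, 3 and 1 for receptor and 1 and 2 for signalling promoters. The medians were then -0.20 to -0.01, and 0.15 for signalling promoters. Of the 85 zinc finger promoters 35 fell and 1 rose, with a median of -0.81 that was -0.45 with centring.

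Without chase, the largest falls with triptolide among coding promoters were other genes. Dusp28, a dual-specificity phosphatase gene, had 0.348, 0.905 and 0.900 RPM in nascent triptolide EdU libraries, against 5.19, 4.04 and 5.55 RPM in nascent DMSO EdU libraries (-1.80 ± 0.33, limma adjusted p = 3.9e-05). Acsl1, an acyl-CoA synthetase of long fatty acids, had 0.695, 0.453 and 1.08 RPM, against 5.77, 4.54 and 4.23 RPM (-1.75 ± 0.32, adjusted p = 4.3e-05). Triptolide libraries of both genes were at 1.08 RPM or less. Smad9, a transducer of BMP signals, Slc26a2, a sulphate transporter, and Fam185a fell by 1.79, 1.78 and 1.68. In every nascent DMSO EdU library these 5 were above the late-listed mean of 1.36 RPM, at up to 5.77 RPM. Nascent-listed S5P-free promoters averaged 2.76 RPM there. The genes were named for falls without overlap, which favours high nascent DMSO levels.

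Whether triptolide changed the course over 2 h was asked by the interaction, the change over 2 h with triptolide minus the change with DMSO. By limma 11 late-listed promoters passed, 9 lower and 2 higher, where 0.45% of all TSSs were called, 0.419% lower and 0.0302% higher, and the median was -0.21 against -0.14 over all TSSs. Without replicate 1 or without replicate 2 of the 2 h DMSO libraries 6 passed. With libraries scaled to windows away from peaks 134 passed, 130 lower and 4 higher, and with centring 7. H2bc14 averaged 1.23 RPM with and 0.538 RPM without chase under triptolide, against 12.5 and 0.817 RPM with DMSO, an interaction of -2.39 (adjusted p = 0.0040). Defb1 had an interaction of -2.62 (limma adjusted p = 0.0025) and Uvrag of -1.74 (limma adjusted p = 0.047). H2bc14, Defb1 and Uvrag were named for large rises over 2 h with DMSO, which favours a negative interaction. Zfp57, which maintains imprints, and Tbxa2r, the thromboxane receptor, were the 2 higher ones, at 2.46 and 2.23, named after their values were seen. The median standard error of the interaction was 0.52.

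In unbound chromatin, triptolide left late-listed promoters nearly level in nascent samples, with means of 3.60 ± 0.023 RPM with triptolide and 3.43 ± 0.057 RPM with DMSO (SD, n = 3 each). By limma 64 rose and 26 fell, where 0.709% of all TSSs rose and 1.53% fell, and with centring 39 rose and 52 fell. That count of 90, where 2.24% of all TSSs were called, was 49 without replicate 2 of the nascent DMSO unbound libraries and 55, 38 and 38 without each of the nascent triptolide unbound libraries. At 2 h 404 fell and 119 rose, where 12.2% of all TSSs fell and 2.26% rose. That count of 523, where 14.5% of all TSSs were called, was 315 without replicate 2 of the 2 h DMSO and 345 without replicate 2 of the 2 h triptolide unbound libraries.

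DRB changed late-listed promoters less. Means were 2.41, 2.40 and 2.68 RPM in 2 h DRB EdU libraries, against 3.02, 2.95 and 2.75 RPM in 2 h DMSO EdU libraries, and 1.01, 1.10 and 1.12 RPM in nascent DRB, against 1.33, 1.36 and 1.39 RPM in nascent DMSO EdU libraries. Neither pair overlapped. The ratios were 0.859 at 2 h and 0.791 without chase, and DRB-treated cells were 2.33-fold higher at 2 h than without chase. By limma 21 late-listed promoters fell at 2 h and 13 rose, where 0.621% of all TSSs fell and 0.201% rose, with a median of -0.16 against -0.12. Without chase 69 fell (1.21%) and 14 rose, where 3.37% of all TSSs fell and 0.282% rose, with a median of -0.20 against -0.18. With centring the splits were 2 fallers and 18 risers at 2 h, and 11 and 16 without chase. No late-listed promoter passed the interaction of DRB with the chase (407 at an unadjusted p under 0.05), where 0.0201% of all TSSs were called.

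These DRB counts rested on single libraries. The 34 called at 2 h, where 0.822% of all TSSs were, were 9, 5 and 9 without replicates 1, 2 and 3 of the 2 h DMSO libraries, and 10 and 14 without replicates 1 and 2 of the 2 h DRB libraries. The 83 called without chase, where 3.65% of all TSSs were, were 40 and 39 without replicates 1 and 2 of the nascent DMSO libraries, and 50 and 130 without replicates 2 and 3 of the nascent DRB libraries. Agtr1b, an angiotensin II receptor, had 10.0, 14.6 and 12.2 RPM in 2 h DRB EdU libraries, against 2.45, 2.52 and 5.81 RPM in 2 h DMSO EdU libraries (1.59 ± 0.32, limma adjusted p = 0.0017). It also had 9.22, 7.45 and 10.6 RPM in 2 h triptolide EdU libraries (1.20, adjusted p = 0.0014 against DMSO). Both inhibitor groups lay above DMSO, and for DRB this is part of the choice of the gene. Mab21l1, a gene of eye development, rose by 1.47, and Capn8, a calpain protease, Ilvbl and Rfx4, a neural tube factor, fell by 1.52, 1.43 and 1.43, but all 4 lost the call in some of the fits without 1 library.

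Without chase, Bphl, a serine hydrolase gene, had 1.42, 0 and 0 RPM in nascent DRB EdU libraries, against 6.34, 3.53 and 2.38 RPM in nascent DMSO EdU libraries (-1.85 ± 0.35, limma adjusted p = 0.00047). Polb, the DNA polymerase of base excision repair, had 0.473, 0 and 0 RPM, against 3.46, 2.52 and 2.38 RPM (-1.72 ± 0.37, adjusted p = 0.0026). Both genes had no read in 2 of the 3 DRB libraries. Pnmt, the enzyme that makes adrenaline, Upk3a, a uroplakin of bladder epithelium, and Ttbk1, a tau kinase, fell by 1.78, 1.59 and 1.58. Neurod1 rose by 1.01 (adjusted p = 0.047). It had 1.89, 3.85 and 2.42 RPM in nascent DRB libraries, above its 1.15, 0.505 and 0.794 RPM in nascent DMSO libraries.

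The spike-in pair repeated the 2 h against nascent comparison in other libraries and in 5 kb regions, with no inhibitor named in the labels. Mean deposited log2 values of late-listed regions were 5.79 and 5.69 in the 2 h libraries, against 4.29 and 5.10 in the nascent libraries. Both 2 h libraries were higher, and the nascent libraries lay further apart from each other than the 2 h ones. By limma 2105 of 5699 rose (36.9%) and 6 fell, where 30.1% of all TSSs rose and 1.35% fell, with a median of 1.07 against 0.79 over all TSSs. With libraries centred on the median TSS 1607 rose and 637 fell. The count rested on single libraries: none was called by limma without replicate 1 or without replicate 2 of the 2 h libraries (361 and 439 at an unadjusted p under 0.05), 4537 were called without replicate 2 of the nascent libraries, and 2795 rose and 217 fell without replicate 1 of the nascent libraries. Both experiments shared 1227 risers, 64.4% of those with DMSO and 58.3% of those with spike-in. The overlap over all TSSs was not counted, so this one cannot be called particular to late-listed promoters.

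By first peak list, the spike-in medians were 1.34 at 30 min, 1.11 at 1 h, 1.03 at 2 h and 0.49 for the steady-state list alone, and with centring 0.52, 0.30, 0.21 and -0.33. Risers numbered 1228, 424, 283 and 170. Itgb8, an integrin subunit that activates TGF-beta, had the largest difference, 4.48 ± 0.54 (limma adjusted p = 4.6e-13), against 0.99 in the DMSO libraries. H2bc14 rose by 3.91, H1f6, a testis linker histone, by 3.80, and the X-linked genes Nap1l3 and Pabpc5 by 3.47 and 3.42. All 5 lost the call without either 2 h library. Of the 68 developmental regulators 44 rose (median 1.47), of the 85 zinc finger promoters 43 (1.38) and of the 8 histone promoters 7 (2.92), where 36.9% of all late-listed promoters and 30.1% of all TSSs rose. None of these counts stands without either 2 h library, since no late-listed promoter was then called. No keratin promoter rose.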

How the data were processed

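Trim Galore 0.4.2, Bowtie2 2.2.6.2 and build mm10 are named in the submitters' processing notes, and no source used here names a peak caller. Deposited peak lists hold positions only, 1 list per group with replicates combined. For 36 libraries, the authors deposited log2(RPM + 1) per 1 kb window, with a step of 500 bp, per the file headers. Undoing the log2 gave RPM, and whole reads were recovered for 100% of the deposited values within 0.1 read. The deposited spike-in table holds log2 values for 5 kb regions, and the use of S2 reads in scaling them is not stated, so its levels are not comparable with RPM.

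TSSs were named from RefSeq within 1000 bp. The members and lists were chosen with earlier results of these data known. Comparisons (13) used limma 3.58.1 in R 4.3.3 with trend on log2(RPM + 1), a pseudocount of 1 RPM, over all TSSs above 0 in at least 3 libraries (2 in the spike-in pair), and Benjamini-Hochberg adjustment per comparison at 0.05. EdU comparisons shared 1 fit over 6 groups, so comparisons that share DMSO libraries are given side by side. A fold change on this scale understates changes of low promoters. No count model was used. Named genes were the coding promoters with the largest called differences and no overlap between groups (10 up and 3 down over 2 h, 5 in each inhibitor comparison and in the spike-in pair), the highest at 2 h in each list (8 developmental regulators, 2 in the others), and the 5 highest at 2 h and the 5 lowest in nascent EdU relative to unbound chromatin. Alternatives were the filter, the pseudocount, 2 scalings, the TSS width, a replicate block and leaving out each library.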

Additional observations from a re-analysis of the deposited data

Results flagged for a closer look

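The change over 2 h differed between triptolide and DMSO in 11 of 5698 late-listed promoters by the interaction term (limma, Benjamini-Hochberg adjustment over all TSSs). Of all TSSs tested 0.45% were called, and the late-listed count was 6 to 16 with 1 library left out. Among genes named in the report, Defb1 had an interaction of -2.62, with 0.872 RPM at 2 h and 0.709 RPM without chase under triptolide, against 7.45 and 0.256 RPM with DMSO. H2bc14 had an interaction of -2.39 and Uvrag of -1.74, and Uvrag had 3.61 and 1.73 RPM under triptolide, against 16.3 and 2.34 RPM with DMSO. These genes were named for large rises over 2 h with DMSO, which favours a negative interaction.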

How the results depend on the processing

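No called value of a named gene changed direction. Centring turned the sign of the overall medians for triptolide in nascent unbound samples and for EdU against unbound at 2 h. Of 19 subgroup medians (4 first peak lists and 15 gene lists) it turned 6 over 2 h (steady-state-only, olfactory, keratin, germline, microRNA and pluripotency promoters), 12 for triptolide and 5 for DRB without chase, 6 for triptolide and 8 for DRB at 2 h, 5 for EdU against unbound without chase and 3 in the spike-in pair. Scaling to windows away from peaks turned 1 for triptolide and 1 for DRB without chase and 4 for DRB at 2 h. Of the summary values 357 stayed within their bounds and 87 moved, while among values of named genes 910 kept their call, 8 gained and 61 lost one. Depth limits the low promoters, since 1 read in nascent DMSO EdU libraries stands for 0.265 to 0.577 RPM. Same-numbered libraries deviated together with correlations of only -0.02 to 0.12 over 11 comparisons, and the main fits did not pair them. Deviations at this depth hold counting error, so low correlations cannot show that samples were unpaired. Unbound chromatin is the supernatant of the capture, so EdU and unbound libraries may be paired by design. With a replicate block, 137 late-listed promoters were called for triptolide in nascent unbound samples and 214 in the spike-in pair, and the other counts stayed within 1.5 times. The cause of these moves was not tested.

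With libraries scaled to windows away from peaks, counts of late-listed promoters called were 3585 for 2 h against nascent (median 1.06), 2545 for triptolide at 2 h (median -0.72), 286 for DRB at 2 h (median -0.29), 134 for the triptolide interaction (median -0.43), 1221 for triptolide in 2 h unbound samples (median -0.28) and 17 for EdU against unbound at 2 h (median -0.24). Medians there were 0.00061 for triptolide in nascent unbound samples and -1.32 for EdU against unbound without chase.

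With libraries centred on the median TSS, counts were 921 for 2 h against nascent (median 0.21), 67 for triptolide (median -0.028) and 27 for DRB (median -0.049) without chase, 763 for triptolide (median -0.11) and 20 for DRB (median -0.018) at 2 h, 7 for the triptolide interaction (median -0.078) and 2072 for EdU against unbound without chase (median -0.38). Medians were -0.0091 for triptolide in nascent unbound samples, 0.063 for EdU against unbound at 2 h and 0.25 for the spike-in pair.

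With only TSSs of at least 1 RPM on average, counts were 383 for triptolide and 137 for DRB without chase, 58 for DRB at 2 h, 19 for the triptolide interaction and 170 for triptolide in nascent unbound samples. Medians were 0.75 for 2 h against nascent, -0.55 for triptolide at 2 h and -0.92 for EdU against unbound without chase. With no filter, counts were 41 and 12 for DRB without chase and at 2 h, 3 for the triptolide interaction, 50 for triptolide in nascent unbound samples and 0 in the spike-in pair (limma, 2237 at an unadjusted p under 0.05).

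With a pseudocount of 0.25 RPM, counts were 798 for triptolide at 2 h, 2 for DRB at 2 h and 2 for the triptolide interaction. Medians were 0.95 for 2 h against nascent, -0.41 and -0.34 for triptolide and DRB without chase, -0.69 for triptolide at 2 h, 0.12 for the DRB interaction, 0.083 for triptolide in nascent unbound samples, and -1.20 and -0.21 for EdU against unbound without chase and at 2 h. Choosing promoters within 1000 bp gave medians of 0.54 for 2 h against nascent and -0.73 for EdU against unbound without chase, and within 250 bp 52.1% were in the 1 h peak list.

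Leaving out 1 library at a time gave 1472 to 1711 called for 2 h against nascent (median 0.61 to 0.67), 109 to 192 for triptolide and 39 to 130 for DRB without chase, 1007 to 1162 for triptolide and 5 to 24 for DRB at 2 h, and 6 to 16 and 0 to 1 for the triptolide and DRB interactions. The ranges were 38 to 107 and 315 to 496 for triptolide in nascent and 2 h unbound samples, 2981 to 3063 for EdU against unbound without chase, and 0 to 4537 in the spike-in pair (median 0.65 to 1.47). The spike-in count of 0 without a 2 h library comes with 1 sample in that group, assumed to vary like the others.

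With centring, the calls of Lhx9, Col23a1, Rpl39l, Krt222, Rps2 and Alx1 were lost. The 5 genes named for DRB at 2 h lost theirs with the smaller pseudocount, and the 5 of the spike-in pair with no filter.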
